A study of Mus musculus with 68 samples.

Results

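The heat shock and chaperone genes are 89 of the 24421 reference gene symbols measured in mouse cumulus cells, in embryos made by somatic cell nuclear transfer (SCNT) and in fertilized blastocysts. They were chosen by name alone. A symbol was taken if it began with Hsp, was a numbered member of the Dnaja, Dnajb or Dnajc series, or was Tcp1, one of Cct2 to Cct8 or one of Bag1 to Bag6, and the unrelated Hspg2 and Hspbap1 were left out. The 89 genes comprised 14 of the HSP70 and HSP110 family, 3 of the HSP90 family, 8 small heat shock proteins (the Hspb series), 2 of the mitochondrial chaperonin, 10 of the TRiC chaperonin, 45 J-domain proteins (4 of type A, 13 of type B and 28 of type C) and 7 co-chaperones of HSP70 (Bag1 to Bag6 and Hspbp1). Families were assigned by symbol alone, so a family name need not describe what each member does.

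Chaperones bind proteins that are not yet folded or have lost their fold. HSP70 proteins hold and release short stretches of a client in a cycle driven by ATP, in which J-domain proteins bring the client and start hydrolysis and nucleotide exchange factors, such as the HSP110, BAG and Hspbp1 proteins, reset the cycle. HSP90 acts later, on nearly folded clients such as kinases and receptors, and TRiC encloses new actin and tubulin in a chamber. The endoplasmic reticulum (ER) and the mitochondrion have sets of their own. Some genes of each family are expressed at all times and others are switched on by heat shock factors, and mouse embryos are known for transcribing Hspa1a and Hspa1b among the first genes of the new genome.

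RNA was copied and sequenced by Smart-seq2, an assay for the polyadenylated RNA of a few cells, with 10 blastomeres per reaction. The SCNT experiment held 3 libraries of cumulus cells (CCs), the follicle cells that gave the donor nuclei, and 53 libraries of SCNT embryos, which keep the cytoplasm of an enucleated oocyte of BDF1 mice (B6D2F1 in the study's methods) 8 to 10 weeks old. There were 6 libraries at each of 6 h post activation (6 hpa), 14 hpa, the early and late 2-cell stages (E2C and L2C), the 8-cell stage (8C) and the morula and, in blastocysts, of the ICM (the inner cell mass) and of the TE (the outer trophectoderm), and 5 at the 4-cell stage (4C). All SCNT embryos had been activated for 6 h in 1 mM strontium chloride with 5 µg per ml cytochalasin B. The second experiment held 12 libraries of fertilized blastocysts, again split into ICM and TE, which per the study's methods came from C57BL/6j mice, the females being of the same age, with 2 libraries for each of control, Max MO and Mcrs1 MO in each lineage. A morpholino (MO) is an antisense oligonucleotide that blocks a transcript, here of Max, the partner of MYC proteins, or of Mcrs1, a subunit of chromatin complexes. The control libraries are called control and untreated in the labels, but the study describes their embryos as injected with a control morpholino of 25 random bases, at another concentration than either targeting morpholino. ICM and TE were separated by micromanipulation. The study describes the SCNT samples as biologically independent and the fertilized ones as biological replicates, and the labels do not say which embryos went into each library.

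Levels are in TPM, a unit that takes account of gene length and of the library's total. Coverage divided by FPKM, a measure of aligned gigabases, was 1.90 to 5.17 in the SCNT experiment and 1.00 to 3.19 in the second. The share of a table's TPM in reference genes, whose medians were 53.1% at 4C, 54.8% at L2C and between 64.5% and 87.6% in the other SCNT groups and CCs, moved with stage. The median log2 difference of all genes tested was therefore also followed under another scaling, over reference genes, which took it from -0.33 to -0.57 for 4C against L2C, from 0.26 to 0.54 for L2C against E2C and from 0.04 to -0.21 for 8C against 4C. CC markers summed to between 1544 and 1859 TPM in CCs and between 1.14 and 40.8 in SCNT libraries, and oocyte markers had a median sum of 7942 TPM at 6 hpa and 30.7 at 8C. One control ICM library of the fertilized blastocysts stood apart: TE markers summed to 17250 TPM in replicate 1 and 645 in replicate 2, against 2929 and 6278 in the Max MO ICM, 12461 and 8822 in the Mcrs1 MO ICM and 16341 to 22146 in the TE. ICM markers summed to 447 and 1055 TPM in the Mcrs1 MO ICM, the first below both Mcrs1 MO TE libraries (452 and 581). They were 1493 and 2047 in the control ICM and 1186 and 1321 in the Max MO ICM. SCNT replicates 1 to 3 and 4 to 6 also gave different values for several genes, and some but not all of these are named below. Of the calls refitted in replicates 1 to 3 alone, 136 held and 47 were lost. In replicates 4 to 6 alone, 96 held, 32 were lost and 2 changed sign. The labels do not say how these sets differ, and speak of 3 replicates per stage where 6 were deposited. In the SCNT ICM, 6177 to 6771 genes reached 1 TPM in replicates 1 to 3 and 9011 to 10032 in replicates 4 to 6. Reference genes held 74.6% to 78.9% and 89.2% to 89.4% of TPM in these ICM sets. At 4C they held 44.0% to 53.1% and 73.5% to 75.6%. The part of these measures in the different values was not tested. Each targeted gene was lower in every library of its own morpholino than in the controls of that lineage. In the ICM, Max was 38 and 8.42 TPM in controls and 6.82 and 0.443 after Max MO, and Mcrs1 was 253 and 310 in controls and 86.8 and 73.4 after Mcrs1 MO. Mcrs1 was also below the controls after Max MO, at 218 and 242 in the ICM and, against 219 and 294, at 206 and 194 in the TE. Max in the TE was 34.5 and 28.5 in controls, 16.3 and 8.68 after Max MO and 17.6 and 15.7 after Mcrs1 MO. In the Mcrs1 MO ICM it was 14.4 and 9.25, within the range of the controls.

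The promoters below are shown because they carry the elements by which chaperone genes are grouped: the heat shock element, to which heat shock factors bind, and the ER stress element, to which the factors of the unfolded protein response bind. RefSeq promoter entries on GRCm38.p6 matched 73 of the 89 genes, and each entry covers 250 bases before the start and 50 after. The heat shock element was searched as GAANNTTC or TTCNNGAA on both strands, which read the same. It was found in 21 of the 73 genes (28.8%) and in 17.0% of all 27025 genes with an entry. A longer form with 3 alternating units was found in Dnajb6, Hspd1, Hspe1 and Hsph1 (5.48%, against 0.662% of all genes), in Hsph1 after the start and so outside the bases printed here. The ER stress element, CCAAT and CCACG with 9 bases between them on either strand, was found in Hspa5, Hsp90b1 and Dnajc3 (4.11%, against 0.137%). A match describes these letters and is not evidence of binding. Each sequence runs 5′ to 3′ on the strand of the gene and ends at the base before its start, with either element in capitals.
Hspa1a, chr17:34972157-34972406, minus strand: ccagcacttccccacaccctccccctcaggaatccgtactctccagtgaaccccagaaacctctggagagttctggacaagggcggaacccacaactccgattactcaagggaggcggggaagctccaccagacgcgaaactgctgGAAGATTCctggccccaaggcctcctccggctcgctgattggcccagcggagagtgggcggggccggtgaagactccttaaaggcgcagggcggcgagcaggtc
Hspa1b, chr17:34959239-34959488, minus strand: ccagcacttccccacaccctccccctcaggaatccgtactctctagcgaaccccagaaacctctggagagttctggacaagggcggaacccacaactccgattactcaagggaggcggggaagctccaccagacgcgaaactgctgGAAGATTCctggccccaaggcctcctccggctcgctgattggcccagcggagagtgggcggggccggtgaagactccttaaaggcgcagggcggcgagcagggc
Hsph1, chr5:149636337-149636586, minus strand: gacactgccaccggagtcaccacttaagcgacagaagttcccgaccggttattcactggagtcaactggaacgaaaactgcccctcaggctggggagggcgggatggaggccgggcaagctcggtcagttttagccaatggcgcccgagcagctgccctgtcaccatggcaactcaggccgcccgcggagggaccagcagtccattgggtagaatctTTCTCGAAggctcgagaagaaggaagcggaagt
Hspa5, chr2:34771840-34772089, plus strand: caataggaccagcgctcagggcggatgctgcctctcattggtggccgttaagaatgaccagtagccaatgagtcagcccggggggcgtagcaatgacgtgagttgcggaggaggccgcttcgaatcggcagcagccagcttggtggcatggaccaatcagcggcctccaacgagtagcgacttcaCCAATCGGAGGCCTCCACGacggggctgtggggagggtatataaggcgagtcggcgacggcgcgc
Hsp90b1, chr10:86705445-86705694, minus strand: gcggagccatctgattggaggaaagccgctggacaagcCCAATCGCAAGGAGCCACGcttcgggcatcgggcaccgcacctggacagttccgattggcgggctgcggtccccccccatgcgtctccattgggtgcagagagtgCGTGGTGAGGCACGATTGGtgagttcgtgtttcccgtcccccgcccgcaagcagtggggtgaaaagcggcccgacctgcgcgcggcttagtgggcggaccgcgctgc
Dnajc3, chr14:118937682-118937931, plus strand: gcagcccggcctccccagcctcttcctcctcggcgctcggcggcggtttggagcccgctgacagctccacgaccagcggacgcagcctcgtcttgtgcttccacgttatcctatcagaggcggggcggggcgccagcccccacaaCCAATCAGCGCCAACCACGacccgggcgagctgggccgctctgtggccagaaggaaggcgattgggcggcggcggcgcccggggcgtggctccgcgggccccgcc
Hspd1 and Hspe1, the 215 bases between both starts on the strand of Hspd1, chr1:55087933-55088147, minus strand: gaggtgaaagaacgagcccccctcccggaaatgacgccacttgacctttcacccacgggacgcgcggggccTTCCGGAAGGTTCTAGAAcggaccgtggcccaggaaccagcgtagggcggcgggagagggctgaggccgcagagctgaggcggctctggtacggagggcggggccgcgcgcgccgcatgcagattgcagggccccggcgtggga
The stretches of Hspa1a and Hspa1b, the heat-inducible HSP70 pair, differ at 3 of 250 bases. Hspd1 and Hspe1, which encode the mitochondrial chaperonin and its lid, lie head to head and share 1 cluster of heat shock elements.

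Each stage was compared with the stage before it, as the difference of means of log2(TPM + 1), which understates the change of genes near 0 TPM. A gene was called, and is said to have risen or fallen, with a Benjamini-Hochberg adjusted p under 0.05 in limma over all genes tested and a difference of at least 2-fold. Log2 differences are signed, the later stage or treated group minus the other, and values after ± are their standard errors. Of the 89 genes, 76 reached a mean of 1 TPM in the SCNT experiment and were tested, and 60 of these were called at least once between SCNT groups. The share of all genes called at least once is not given, so this count does not set members against all genes. In bulk libraries, fewer cells of a type and less RNA per cell cannot be told apart.

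At 6 hpa against CCs, 9 of 76 members were higher and 40 lower (11.8% and 52.6%), where 25.8% and 35.6% of all genes were higher and lower. This comparison sets an oocyte's cytoplasm against a somatic cell, so donor and oocyte RNA cannot be told apart. From 6 to 14 hpa 4 members rose and 3 fell (all genes 6.14% and 4.94%), and from 14 hpa to E2C 3 rose and 3 fell (2.78% and 3.05%). At L2C against E2C 26 members were higher and 7 lower, which is 34.2% and 9.21% of the members beside 23.7% and 11.2% of all genes. At 4C against L2C 17 were higher and 11 lower (22.4% and 14.5%, beside 11.8% and 26.6%), and at 8C against 4C 18 and 6 (23.7% and 7.89%, beside 11.5% and 8.23%). In the morula against 8C 10 members rose and 1 fell (13.2% and 1.32%, beside 8.74% and 3.48%). In the SCNT ICM against the morula 2 rose and 10 fell (8.96% and 15% of all genes), and in the SCNT TE against the morula 3 rose and 8 fell (11% and 10.8%). The SCNT ICM and SCNT TE differed in 2 members, both lower in the ICM (all genes 1.47% higher and 3.87% lower). The split between rises and falls moved with the scaling. With TPM rescaled over reference genes, 77 members were tested. Of these 7 rose and 2 fell at 14 hpa, 38 and 5 at L2C, 13 and 15 at 4C, 8 and 7 at 8C and 9 and 3 in the morula. After quantile normalization 16 were higher and 37 lower at 6 hpa than in CCs, 21 rose and 15 fell at L2C and 9 and 3 in the morula. Fits of replicates 1 to 3 and of 4 to 6 gave different counts: at 14 hpa 1 member rose and 6 fell in the first set and 18 rose and 2 fell in the second, at E2C 8 and 2 against 0 and 12, at L2C 17 and 8 against 33 and 5, at 4C 10 and 8 against 25 and 17, and in the ICM against the morula 0 and 17 against 10 and 5. Here and below, counts under other scalings or subsets of libraries are given without the share of all genes. They show how far the number called moves, and do not set members against all genes.

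**Figure D1:**
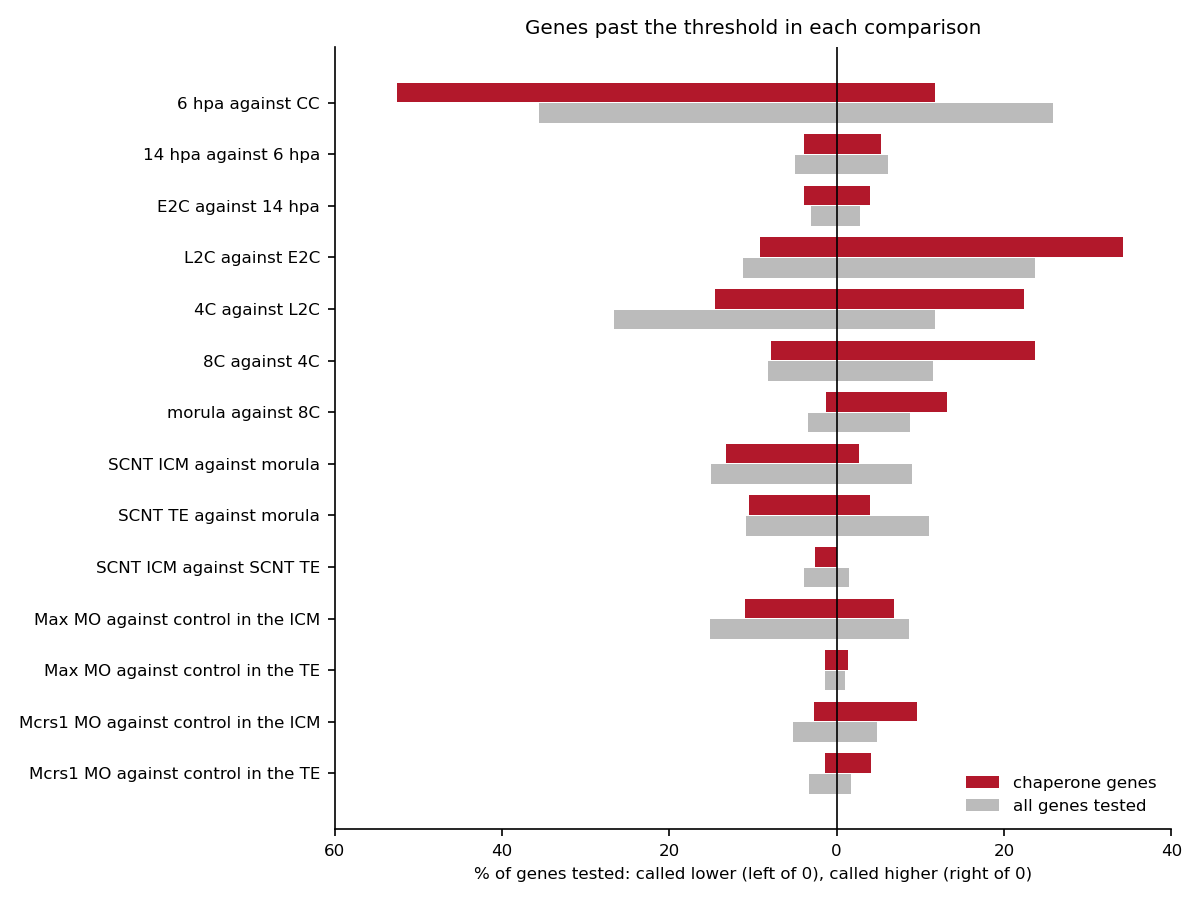
Percentage of tested members (red) and of all tested genes (grey) called lower (left) and higher (right) in each of 14 comparisons, at an adjusted p under 0.05 and at least 2-fold. The member bars reach 52.6% lower at 6 hpa against CCs and 34.2% higher at L2C against E2C, and they lie near the grey bars from 6 hpa to E2C.

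The group with the highest median was the morula for 21.1% of the 76 members and the ICM for 22.4%, where it was 12% and 13.5% of all genes. Only 3.95% of members peaked at E2C (all genes 7.25%), and 9.21% at 6 hpa (all genes 14.4%).

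**Figure D2:**
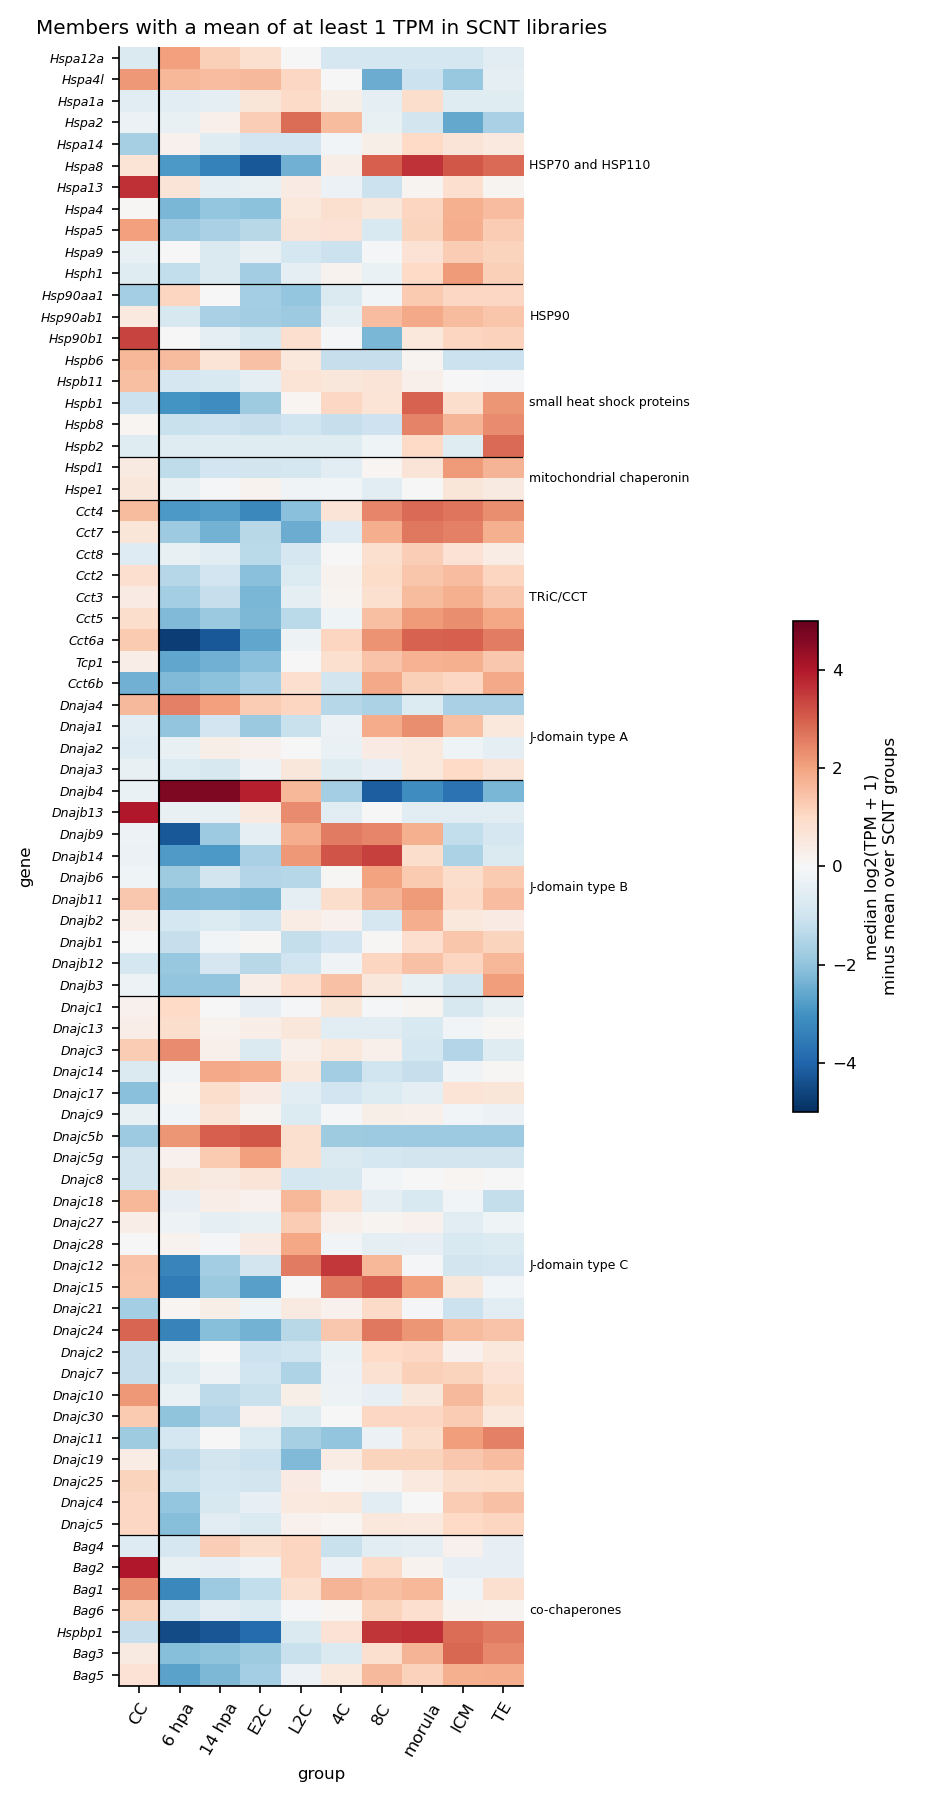
Heat map of the 76 tested members, grouped by family, over CCs and the SCNT groups. Colour is a gene's median log2(TPM + 1) in a group minus its mean over the SCNT groups, limited to ±5, and most TRiC genes turn from low values before L2C to high values from 8C on.

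Hspa8 encodes HSC70, the cytosolic HSP70 that is present in unstressed cells. It was at 926, 1169 and 1184 TPM in the 3 CC libraries. The lowest, median and highest of the SCNT libraries were 56.8, 100.1 and 122 at 6 hpa, 37, 69.4 and 124 at 14 hpa and 27.5, 38.1 and 88.1 at E2C. Every SCNT library up to L2C was therefore below every CC library. At L2C it was 68.5, 136 and 201, at 4C 715, 926 and 2513 and at 8C 3089, 5839 and 7772. The highest level was in the morula, at 8309, 8974 and 11159 TPM, and blastocysts followed with 4879, 6333 and 8256 in the ICM and 3169, 5267 and 6247 in the TE. The log2 difference was -3.54 ± 0.36 (adjusted p = 1.4e-12) for 6 hpa against CCs, 1.57 ± 0.30 (adjusted p = 2.8e-05) for L2C against E2C, 3.22 ± 0.31 (adjusted p = 2.7e-12) for 4C against L2C and 2.08 ± 0.31 (adjusted p = 2.0e-06) for 8C against 4C. The ranges of L2C, 4C and 8C did not overlap, and these calls held under both other scalings. The rise at L2C was 0.97 in replicates 1 to 3, below the fold minimum, and 2.16 in replicates 4 to 6. The gap between morula and 8C, 0.85 ± 0.30 (adjusted p = 0.049), and between TE and morula, -0.88 ± 0.30 (adjusted p = 0.024), stayed under 2-fold. As a share of the summed TPM of all members, Hspa8 had a median of 1.09% at E2C, 11.9% at 4C and 32.7% in the morula, against 12.4% in CCs. Of 150-base windows of its transcripts, 20.3% also occur in the pseudogene Gm26825, so part of the level could be split between them.

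Hspa1a and Hspa1b, the pair switched on by heat and in early fertilized embryos, stayed low. Hspa1a reached 8.27 TPM at most in any of the 68 libraries, and its highest SCNT group median was 2.03, at L2C. Hspa1a was 0, 0.0411 and 0.337 TPM at 6 hpa and 0, 0.101 and 0.296 at 14 hpa. It was 0.545, 1.33 and 2.52 at E2C, above all 14 hpa libraries, and 0.168, 2.03 and 5.94 at L2C. The log2 difference of E2C against 14 hpa was 1.06 ± 0.43 (adjusted p = 0.15), which was not called. Hspa1b, whose mean was below the 1 TPM filter, had medians of 0.0638 TPM at 14 hpa, 0.380 at E2C and 0.391 at L2C, and reached 3.26 at most, in 1 ICM library. In CCs Hspa1a was 0.0216 to 0.263 TPM and Hspa1b 0.0216 to 0.236. Of the windows of Hspa1a, 38.1% also occur in Hspa1b, so the pair cannot be fully told apart. Morula levels of Hspa1a were 0.0383, 1.86 and 6.90 and TE levels 0, 0.0238 and 0.981, a fall of -1.18 ± 0.43 (adjusted p = 0.037) that was not called without replicate 1, 3 or 5 (-1.04, -0.95 and -1.23) or under either other scaling. The third gene of this group, Hspa1l, stayed below the filter with 4.10 TPM at most.

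**Figure D3:**
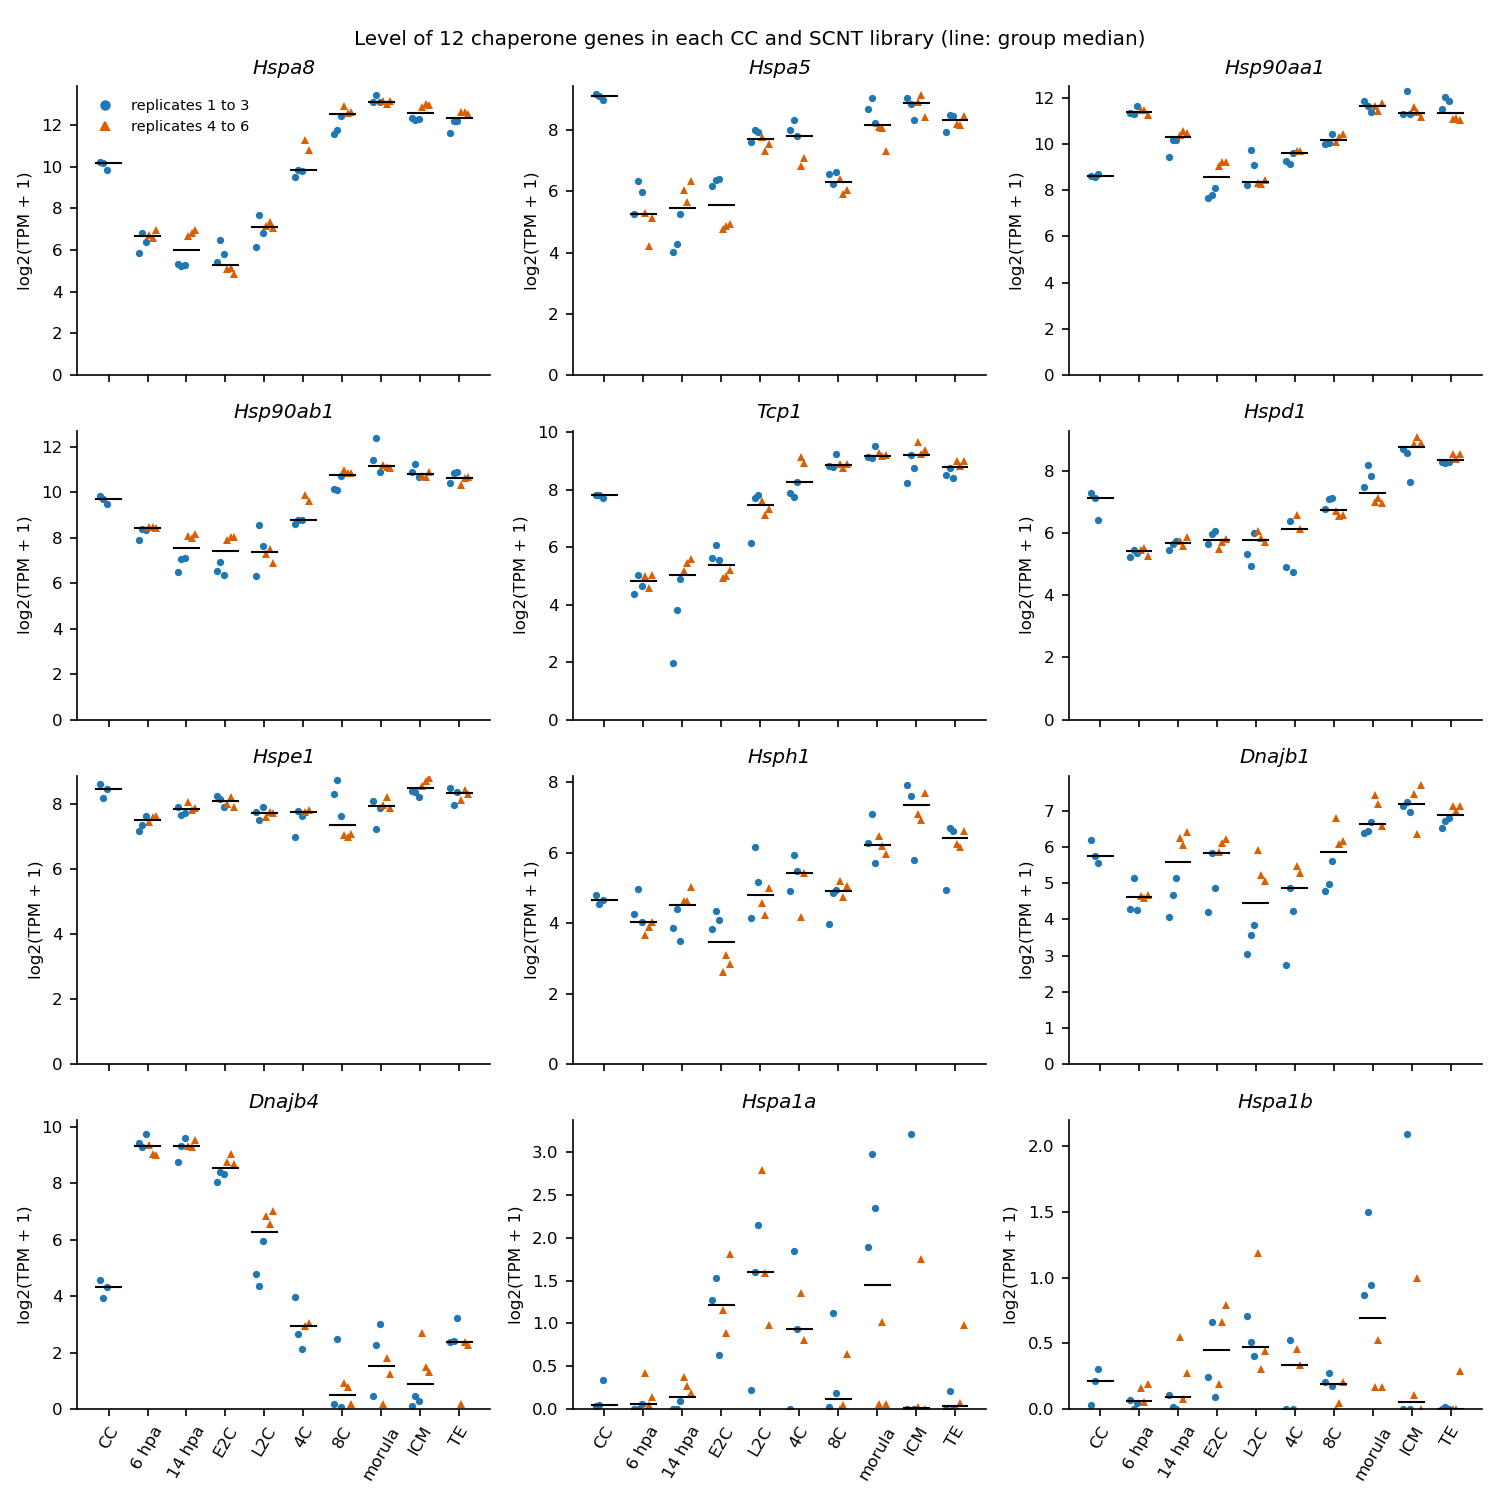
Levels of 12 members as log2(TPM + 1) in every CC and SCNT library. Circles are replicates 1 to 3, triangles replicates 4 to 6 and lines group medians. Hspa8 climbs from a median of 38.1 TPM at E2C to 8974 TPM in the morula, while no SCNT group median of Hspa1a or Hspa1b exceeds 2.03 TPM.

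The HSP110 proteins reset the HSP70 cycle. Hspa4 was 1.41, 5.70 and 9.30 TPM at E2C and 29.8, 39.1 and 60.1 at L2C, ranges that did not overlap, with a log2 difference of 2.84 ± 0.33 (adjusted p = 1.6e-09) that held in both replicate sets. Its level after L2C lay between 27.5 and 137 TPM with no further call. Hsph1, whose promoter is printed above, was 5.12, 10.5 and 19.5 at E2C, 16.8, 26.8 and 70.6 at L2C, 14.8, 28.9 and 35.8 at 8C and 51.2, 74 and 136 in the morula. It rose by 1.41 ± 0.36 (adjusted p = 0.0015) at L2C, where the ranges overlapped, and by 1.49 ± 0.36 (adjusted p = 0.0034) in the morula, where they did not. Neither rise was called in replicates 1 to 3 alone (1.07 and 1.76). Hspa4l went the other way: 12.1, 17.9 and 29 TPM at 6 hpa, 7.66, 11.5 and 13.7 at L2C and 0, 0.0871 and 1.41 at 8C, with a log2 difference of -2.25 ± 0.42 (adjusted p = 9.1e-05) for 8C against 4C. This fall was -1.21 and not called in replicates 4 to 6. Hspa2, an HSP70 known from spermatogenesis, peaked at L2C with 29.5, 47.5 and 76.3, after 2.79, 4.44 and 6.24 at 6 hpa and before 1.34, 2.73 and 4.78 in the morula. Its rise at L2C was 1.70 ± 0.54 (adjusted p = 0.0100) and its falls at 4C and 8C were -1.65 and -1.52. The rise was 1.07 and not called in replicates 1 to 3. The fall at 4C was not called without replicate 4 or 5 (-1.41 and -1.44), and that at 8C was not called without replicate 1, 2, 3 or 6 (-1.24 to -1.49) or after quantile normalization. Hspa12a, a distant relative, was higher at 6 hpa than in CCs by 2.66 ± 0.46 (adjusted p = 1.4e-06). Over the family, 2 of 11 tested genes were higher and 4 lower at 6 hpa than in CCs (18.2% and 36.4%, beside 25.8% and 35.6% of all genes). At L2C 5 rose and none fell (45.5%, beside 23.7% rising), 1 rose and 1 fell at 4C (9.09% each, beside 11.8% and 26.6%), 1 rose and 3 fell at 8C (9.09% and 27.3%, beside 11.5% and 8.23%), and 4 rose and none fell in the morula (36.4%, beside 8.74% rising). The family's median log2 difference at 4C was -0.09, and it was 0.18 after quantile normalization and -0.29 after rescaling.

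The cytosolic HSP90 genes followed different courses before the 2-cell stage. Hsp90aa1, the inducible isoform, was 385, 394 and 419 TPM in CCs and 2474, 2715 and 3205 at 6 hpa. It fell to 697, 1261 and 1511 at 14 hpa and 205, 397 and 604 at E2C, a range that includes that of CCs. The log2 differences were 2.78 ± 0.28 (adjusted p = 1.9e-12) for 6 hpa against CCs, -1.21 ± 0.24 (adjusted p = 0.00015) for 14 against 6 hpa and -1.70 ± 0.24 (adjusted p = 1.3e-06) for E2C against 14 hpa. The ranges did not overlap in these comparisons. The fall at 14 hpa was not called after quantile normalization (-0.66) or in replicates 4 to 6 (-0.94). From 1039.8, 1177 and 1389 at 8C it rose to 2684, 3195 and 3762 in the morula, by 1.41 ± 0.24 (adjusted p = 2.4e-05). The L2C value against E2C differed in sign between the replicate sets (1.17 and -0.83). Of its windows, 28.5% occur elsewhere, most of them in the pseudogene Gm12346.

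Hsp90ab1, the isoform expressed at all times, was 706, 828 and 893 TPM in CCs and fell to 233, 340.1 and 357 at 6 hpa, by -1.33 ± 0.36 (adjusted p = 0.0011). At L2C it was 77.4, 167 and 378, at 4C 389.7, 439.6 and 925 and at 8C 1099, 1739 and 2002, rises of 1.76 ± 0.31 (adjusted p = 6.5e-06) and 1.47 ± 0.31 (adjusted p = 0.00045) with no overlap. The second rise was 0.99 and not called after rescaling. At 6 hpa every library held more Hsp90aa1 than Hsp90ab1 by TPM, the lowest Hsp90aa1 library being at 2474 and the highest Hsp90ab1 library at 357. In CCs the order was opposite, with at most 419 TPM of Hsp90aa1 and at least 706 of Hsp90ab1.

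In the ER, Hspa5 encodes BiP, the HSP70 of that compartment, and Hsp90b1 its HSP90, GRP94. Hspa5 was 506, 558 and 583 TPM in CCs, 17.6, 37.7 and 80.2 at 6 hpa and 26, 50.7 and 83 at E2C. It rose to 158, 208 and 259 at L2C, was 113, 225 and 319.5 at 4C, fell to 58.9, 79.2 and 99.4 at 8C and rose again to 158, 288 and 534 in the morula. No range at L2C, 8C or the morula overlapped that of the stage before. The log2 differences were -3.73 ± 0.40 (adjusted p = 1.0e-11) for 6 hpa against CCs, 2.12 ± 0.34 (adjusted p = 1.1e-06) at L2C, -1.31 ± 0.35 (adjusted p = 0.0054) at 8C and 1.94 ± 0.34 (adjusted p = 4.2e-05) in the morula, all called under both other scalings. The fall at 8C was -0.85 and not called in replicates 4 to 6. Between 6 hpa and E2C the replicate sets had opposite signs, -1.34 and 1.14 at 14 hpa and 1.79 and -1.16 at E2C.

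Hsp90b1 was 143, 157 and 291 TPM at L2C, 21.6, 81 and 106 at 4C, 4.60, 17 and 49.4 at 8C and 74.8, 125 and 189.6 in the morula. Its log2 differences were 1.92 ± 0.36 (adjusted p = 2.1e-05) at L2C, -1.65 ± 0.38 (adjusted p = 0.00032) at 4C, -1.79 ± 0.38 (adjusted p = 0.00041) at 8C and 2.80 ± 0.36 (adjusted p = 1.2e-07) in the morula. All 4 calls held in each replicate set and under both other scalings. Hspa5 and Hsp90b1, which share the ER stress element, thus both fell at 8C and rose in the morula. Dnajc3, the third gene with the element, encodes an ER J-domain protein that also restrains the translation kinase PERK. It was at its highest at 6 hpa, with 126, 164 and 190.0 TPM, and fell to 9.95, 36.8 and 59.2 at 14 hpa, by -2.34 ± 0.39 (adjusted p = 1.2e-05), with no overlap and in both replicate sets. Its difference of morula against 8C was -1.07 ± 0.39 (adjusted p = 0.059), a decrease that was not called.

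Further J-domain proteins work in the ER. Dnajb9, which brings clients to BiP for degradation, was 4.55, 6.25 and 13.1 TPM at 6 hpa, 30.8, 38.2 and 62.9 at 14 hpa, 169, 484 and 543 at L2C and 606, 831 and 992 at 4C. It then stood at 279.7, 474 and 715 in the morula, 24, 57 and 117 in the ICM and 38.8, 76.5 and 142 in the TE. The rises were 2.47 ± 0.35 (adjusted p = 5.6e-07) at 14 hpa and 2.25 ± 0.35 (adjusted p = 8.8e-07) at L2C, and the falls from the morula -3.03 ± 0.35 (adjusted p = 2.5e-09) in the ICM and -2.60 ± 0.35 (adjusted p = 8.9e-08) in the TE, each in both replicate sets. No range overlapped except that of L2C with E2C. Dnajb11, a co-factor of BiP in folding, was 3.85, 8.78 and 11.6 at E2C, 27.4, 32.5 and 54.3 at L2C and 167, 199.8 and 263 in the morula, and it rose at L2C by 2.09 ± 0.37 (adjusted p = 8.4e-06). The ICM fall of Dnajb11 was -1.49 ± 0.37 (adjusted p = 0.0018), with -0.68 in replicates 4 to 6, which was not called. Its rise at 4C, 1.02, was not called without replicate 2, 4, 5 or 6 (0.78 to 1.08) or after rescaling. Dnajb14, a J-domain protein of the ER membrane, was 1.06, 5.05 and 11.6 at E2C, 24.4, 82 and 94.7 at L2C, 144, 195 and 253 at 8C and 0.685, 5.21 and 20.6 in the ICM, with a rise of 3.60 ± 0.58 (adjusted p = 1.6e-06) at L2C and falls of -2.47 ± 0.58 (adjusted p = 0.0022) in the morula and -2.59 ± 0.58 (adjusted p = 0.00056) and -2.02 ± 0.58 (adjusted p = 0.0073) in the ICM and TE. The TE fall was not called without replicate 3 or 4 (-1.56 and -1.59). In replicates 1 to 3 the morula and TE falls were -2.37 and -1.51, and in replicates 4 to 6 the ICM fall was -1.14, none of them called. In a list of 18 other tested genes of ER folding and the unfolded protein response, 13 were lower and 1 higher at 6 hpa than in CCs (72.2% and 5.56%, beside 35.6% and 25.8% of all genes), among them the transcription factor gene Xbp1 at -7.63. At L2C 7 rose and none fell (38.9%, beside 23.7% rising), with the disulphide isomerase genes P4hb at 2.66 and Pdia3 at 1.84, and in the morula 9 rose and none fell (50%, beside 8.74% rising), with Xbp1 at 3.05 and Pdia6 at 2.78.

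**Figure D4:**
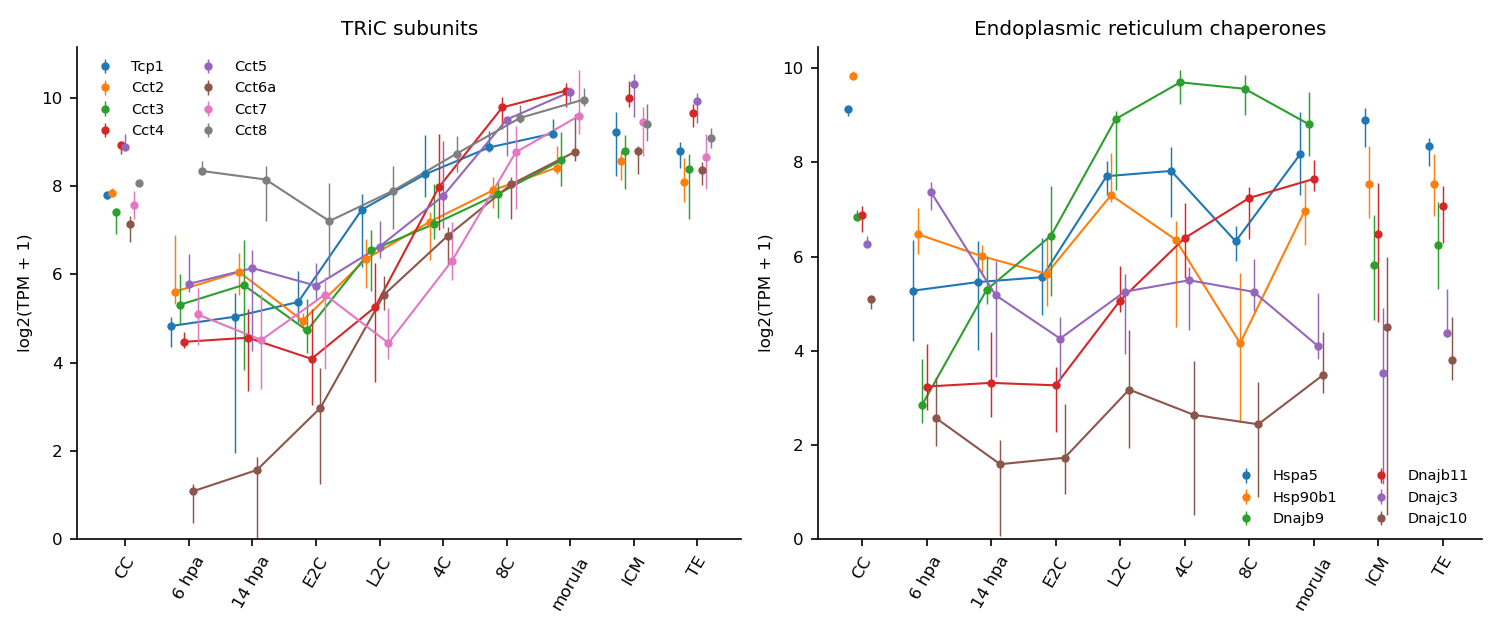
Median TPM, with lines from the lowest to the highest library, of 8 TRiC subunits and 6 ER chaperones in CCs and the SCNT groups. Hspa5 and Hsp90b1 dip at 8C, to medians of 79.2 and 17.0 TPM, where the medians of all 8 TRiC subunits are above those of every earlier SCNT stage.

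In mitochondria, Hspd1 encodes the HSP60 chaperonin, Hspe1 its lid HSP10 and Hspa9 the HSP70. Hspd1 was 84.7, 139 and 156 TPM in CCs and 37, 41.7 and 44.8 at 6 hpa, a fall of -1.56 ± 0.30 (adjusted p = 1.2e-05) with no overlap. It was 26, 69 and 94.4 at 4C, 92.7, 107 and 140.3 at 8C, 125, 158 and 293 in the morula, 202, 441 and 542 in the ICM and 303, 325 and 376 in the TE. The rise of 1.06 ± 0.26 (adjusted p = 0.0023) at 8C was not called without replicate 1 or 3 (0.86 and 0.75) or under either other scaling, nor in replicates 4 to 6 (0.27). In the ICM against the morula it rose by 1.20 ± 0.25 (adjusted p = 0.00021), which was 0.48 in replicates 1 to 3 and 1.91 in replicates 4 to 6, and the TE difference of 0.95 ± 0.25 (adjusted p = 0.0029) was under 2-fold. Hspe1, on the other side of the shared promoter, was not called in any SCNT comparison: its medians lay between 167 TPM at 8C and 361 in the ICM. The difference between the genes' changes was not tested. Hspa9 rose from 56.7, 99.2 and 111 at 8C to 159, 171 and 509 in the morula, by 1.27 ± 0.25 (adjusted p = 0.00030), with 0.66 in replicates 4 to 6 and 0.90 without replicate 2, neither called. In a list of 7 other genes of mitochondrial protein folding and import, all 7 were lower at 6 hpa than in CCs (35.6% of all genes), 5 rose at L2C (71.4%, beside 23.7%), 2 at 4C and 2 at 8C (28.6% each, beside 11.8% and 11.5%), and none fell at these 3 stages.

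TRiC folds actin and tubulin and is built of the products of Tcp1, Cct2 to Cct5, Cct6a or its testis form Cct6b, Cct7 and Cct8. At 6 hpa 7 of 9 tested genes were lower than in CCs and none higher (77.8% lower, beside 35.6% of all genes). From then on 5 rose at L2C (55.6%, beside 23.7%), 6 rose and 1 fell at 4C (66.7% and 11.1%, beside 11.8% and 26.6%), and 5 rose at 8C (55.6%, beside 11.5%). The L2C rises held under both other scalings. At 4C those of Cct3 and Tcp1 were lost under both, and that of Cct5 after quantile normalization (0.98). None of these was called at 4C in replicates 1 to 3 (0.79, 0.75 and 0.80). At 8C the rises of Cct5 and Cct6a were lost under both other scalings. Tcp1 was 208, 223 and 224 TPM in CCs and 19.6, 27.6 and 31.7 at 6 hpa. It rose from 29.1, 40.7 and 66.3 at E2C to 70.6, 176 and 226 at L2C and 216, 308 and 567 at 4C, and it was 554, 583 and 733 in the morula. The log2 differences were -2.999 ± 0.41 (adjusted p = 8.5e-09) at 6 hpa, 1.90 ± 0.34 (adjusted p = 1.2e-05) at L2C and 1.11 ± 0.36 (adjusted p = 0.010) at 4C. The 4C rise was not called without replicate 4 or 5 (0.99 and 0.95), nor under either other scaling (0.92 rescaled, 0.67 after quantile normalization).

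The subunits did not keep to 1 time course. Cct4 was 425, 484 and 486 TPM in CCs, 19, 21.2 and 24.9 at 6 hpa, 10.8, 37.4 and 76 at L2C, 128, 249.9 and 584 at 4C, 629, 880.4 and 1031 at 8C and 880.1, 1144 and 1284 in the morula. It rose at 4C by 3.05 ± 0.36 (adjusted p = 5.8e-10) and at 8C by 1.56 ± 0.36 (adjusted p = 0.0010), and not at L2C. The 8C rise was 0.73 and not called in replicates 4 to 6. Cct6a was 106, 139.6 and 159.6 in CCs, 0.288, 1.12 and 1.38 at 6 hpa, 1.39, 8.37 and 13.8 at E2C and 35.7, 45.5 and 61.1 at L2C, so it fell by -6.12 ± 0.40 (adjusted p = 1.4e-19) and rose by 2.84 ± 0.33 (adjusted p = 1.3e-09) at L2C. Its smaller rise at E2C, 1.34 ± 0.33 (adjusted p = 0.0061), was 2.77 in replicates 1 to 3 and -0.09 in replicates 4 to 6, and it was not called without replicate 1, 2 or 3 (0.84, 1.15 and 1.19). It rose again at 4C by 1.23 ± 0.35 (adjusted p = 0.0034) and at 8C by 1.09 ± 0.35 (adjusted p = 0.020), the last not called without replicate 3 or 5 (0.92 and 1.08) or under either other scaling. Cct7 was 15.8, 21.1 and 36.9 at L2C, 57.4, 78.3 and 146 at 4C, 178, 435 and 652 at 8C and 576, 774 and 1575 in the morula, with rises of 2.002 ± 0.39 (adjusted p = 2.9e-05), 1.96 ± 0.39 (adjusted p = 0.00017) and 1.20 ± 0.37 (adjusted p = 0.023). The rises at 4C and 8C held under both other scalings, and the morula rise was not called without replicate 1 or 2 (1.04 and 0.84) or in replicates 4 to 6 (0.57). Cct2 fell at E2C by -1.09 ± 0.23 (adjusted p = 0.0010), from 45.1, 65.5 and 88.2 to 25.1, 29.9 and 33.8, and rose at L2C by 1.33 ± 0.23 (adjusted p = 4.5e-06), to 50.6, 80.9 and 111. The fall was -0.73 and not called in replicates 1 to 3. Cct8 and Cct6b were the tested subunits not called lower at 6 hpa. Cct8 was 254, 268 and 273 in CCs and 305, 324 and 379 at 6 hpa, with a log2 difference of 0.33 ± 0.30 (adjusted p = 0.35), and was not called at any stage. Cct6b was listed at 0 in the median CC library, 0, 0.653 and 1.91 at E2C, 4.47, 8.39 and 16 at L2C and 7.84, 18.8 and 28.4 at 8C, and rose by 2.52 ± 0.53 (adjusted p = 0.00014) at L2C and 2.65 ± 0.56 (adjusted p = 0.00040) at 8C. Its fall at 4C, -1.65, was not called without replicate 1, 2 or 5 (-1.36 to -1.45). Of 6 tested prefoldin genes, which deliver actin and tubulin to TRiC, 3 were lower and 1 higher at 6 hpa than in CCs (50% and 16.7%, beside 35.6% and 25.8% of all genes). Of these 3 rose at 14 hpa (50%, beside 6.14%) and 4 at 4C (66.7%, beside 11.8%).

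J-domain proteins choose the clients and sites of HSP70. Dnajb4, a cytosolic partner of HSP70, was 14.2, 18.9 and 22.6 TPM in CCs and 509, 637 and 859 at 6 hpa, higher by 5.04 ± 0.56 (adjusted p = 2.0e-11). It was 260.5, 372 and 526 at E2C, 19.8, 77.2 and 129.7 at L2C, 3.39, 6.61 and 14.6 at 4C and 0.0638, 0.429 and 4.60 at 8C. The falls were -2.62 ± 0.46 (adjusted p = 8.4e-06), -2.97 ± 0.49 (adjusted p = 1.5e-06) and -2.18 ± 0.49 (adjusted p = 0.00083), in both replicate sets and under both other scalings, and only the ranges of 4C and 8C overlapped. Dnajc5b, a cysteine string protein, was at most 0.0111 TPM in CCs, 13, 15.5 and 25.5 at 6 hpa, 12.4, 29.8 and 45.6 at E2C and 0.00218, 0.0398 and 1.15 at 4C. It was higher at 6 hpa than in CCs by 4.13 ± 0.42 (adjusted p = 1.5e-12) and fell by -2.17 ± 0.35 (adjusted p = 1.9e-06) at L2C and -2.14 ± 0.37 (adjusted p = 4.5e-06) at 4C. Dnajc8, a partner of the spliceosome, fell from 419, 479 and 571 at E2C to 78.4, 164 and 316 at L2C, by -1.58 ± 0.23 (adjusted p = 1.3e-07) (-0.90 and not called in replicates 4 to 6). Oocyte markers fell over the same stages, from a median sum of 4142 TPM at E2C to 2132 at L2C and 114 at 4C, and their part in these falls was not tested.

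Dnajc15, of the mitochondrial inner membrane, was called at 5 of the 9 SCNT comparisons, more than any other member. It was 277, 378 and 408 TPM in CCs and 7.15, 11.5 and 17 at 6 hpa, then 19.4, 38.6 and 51.2 at 14 hpa and 8.97, 21.1 and 21.6 at E2C. Later levels were 53.5, 140.5 and 305 at L2C, 425, 869 and 1273 at 4C, 709, 1125 and 1595 at 8C and 432, 606 and 921 in the morula, and the blastocyst held 126, 212 and 333 in the ICM and 104, 128 and 338 in the TE. The log2 differences were -4.82 ± 0.39 (adjusted p = 4.1e-16) for 6 hpa against CCs, 1.54 ± 0.32 (adjusted p = 0.00037) at 14 hpa, 2.82 ± 0.32 (adjusted p = 6.5e-10) at L2C, 2.56 ± 0.34 (adjusted p = 1.2e-08) at 4C and, against the morula, -1.55 ± 0.32 (adjusted p = 0.00020) in the ICM and -2.07 ± 0.32 (adjusted p = 1.6e-06) in the TE. None of these ranges overlapped. The 14 hpa rise was 0.96 in replicates 1 to 3 and the ICM fall -0.95 in replicates 4 to 6, neither called. Dnajc19, of the motor that pulls proteins into mitochondria, fell from 29.9, 37 and 44 at E2C to 6.91, 16.3 and 28.7 at L2C and rose to 75.7, 103 and 135 at 4C, by -1.16 ± 0.25 (adjusted p = 0.00014) and 2.61 ± 0.26 (adjusted p = 5.2e-12). The fall was not called after rescaling (-0.86), without replicate 1 (-0.91) or in replicates 4 to 6 (-0.64). Dnajc11, a mitochondrial membrane protein, was 0.555, 7.15 and 12.2 at 4C, 17.5, 25.3 and 41 at 8C, 32.6, 57.6 and 80.1 in the morula and 81.8, 137 and 202 in the ICM, and it rose by 2.09 ± 0.46 (adjusted p = 0.00068) at 8C. From the morula it rose by 1.34 to the ICM and by 1.37 to the TE, the first not called without replicate 3 or 5 (1.33 and 1.28) and the second without replicate 4, 5 or 6 (1.16 to 1.28).

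Dnajc24, which serves the diphthamide pathway, was 87.4, 92.1 and 112 TPM in CCs and 0.0233, 0.219 and 1.58 at 6 hpa, lower by -6.10 ± 0.65 (adjusted p = 6.8e-12). It rose to 0.0807, 29.8 and 70.8 at 4C and 56.9, 75 and 86.1 at 8C, by 2.26 ± 0.57 (adjusted p = 0.0010) and 1.78 ± 0.57 (adjusted p = 0.019). These rises came from different libraries: at 4C it was 0.69 in replicates 1 to 3 and 4.41 in replicates 4 to 6, and at 8C 3.08 and -0.10. Without replicate 4 the 4C rise was 1.59 and not called, and the 8C rise was not called without replicate 1, 3 or 6 (0.66, 1.84 and 1.73) or after rescaling (1.52). Dnajc12 was 22.3, 27 and 27.4 in CCs, 0.0160, 0.0452 and 0.368 at 6 hpa, 0.209, 4.41 and 14.5 at E2C and 15, 61.2 and 102 at L2C, lower by -4.61 ± 0.83 (adjusted p = 2.9e-06) at 6 hpa and up by 3.57 ± 0.69 (adjusted p = 3.3e-05) at L2C (1.59 and not called in replicates 1 to 3). Dnaja1, a farnesylated partner of HSC70, was 24.8, 49.1 and 68.4 at L2C, 52.1, 87.9 and 254 at 4C, 202, 387 and 418 at 8C, 365, 543 and 921 in the morula and 119, 153 and 254 in the TE. It rose by 1.25 ± 0.30 (adjusted p = 0.00070) at 4C and 1.54 ± 0.30 (adjusted p = 0.00018) at 8C, and was lower by -1.68 ± 0.29 (adjusted p = 1.2e-05) in the TE than in the morula. Only the last of these had no overlap, and the 4C rise was 0.53 in replicates 1 to 3 and the 8C rise 0.83 in replicates 4 to 6, neither called. Dnajb1, the J-domain protein of the heat shock response, was 17.5, 56.3 and 73.4 at E2C, 7.21, 22.9 and 59 at L2C, 5.65, 27.9 and 43.1 at 4C and 26.3, 57.3 and 111 at 8C. Its fall at L2C, -1.07 ± 0.42 (adjusted p = 0.038), and its rise at 8C, 1.22 ± 0.44 (adjusted p = 0.041), had overlapping ranges and were not called after rescaling, nor was the rise after quantile normalization (0.92). The first was not called without replicate 2, 3, 5 or 6 (-0.84 to -1.11) and the second without replicate 1, 3, 4, 5 or 6 (0.97 to 1.35). Dnajb1 was also lower at 6 hpa than in CCs by -1.23 ± 0.51 (adjusted p = 0.032), which was lost without any of replicates 1 to 3 (-0.99 to -1.37) and after quantile normalization (-0.79).

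Dnajc2, of the ribosome-bound complex that receives new chains, fell from 69.6, 94.4 and 103 TPM at 14 hpa to 28.1, 43.9 and 59.7 at E2C, by -1.04 ± 0.27 (adjusted p = 0.0083), and rose to 122, 187 and 246 at 8C, by 1.39 ± 0.28 (adjusted p = 0.00022). The fall was -0.91 and not called without replicate 3, and the rise was not called under either other scaling. Neither replicate set alone called the fall (-1.10 in replicates 1 to 3 and -0.99 in replicates 4 to 6). Dnajb2 was 0.0667, 0.813 and 1.93 at 8C, 4.62, 10.5 and 37.2 in the morula, 0, 3.71 and 8.23 in the ICM and 0.349, 3.39 and 5.55 in the TE, up by 2.84 ± 0.48 (adjusted p = 3.3e-05) in the morula and down from it by -1.89 ± 0.48 (adjusted p = 0.0024) and -1.83 ± 0.48 (adjusted p = 0.0034). Without replicate 2 neither fall was called (-1.30 and -1.23). In replicates 4 to 6 they were -0.18 and -0.85, neither called. Further members among the largest changes were Dnajc21 (2.23) at 6 hpa against CCs, Dnajc14 (1.97) and Dnajc1 (-1.18) at 14 hpa, Dnajc14 (-1.97) and Dnajc5g (-1.44) at L2C, Dnaja4 (-2.11) and Dnajb13 (-2.10) at 4C, and Dnajc18 (-1.48) at 8C, and 44.1% of the exon bases of Dnaja4 overlap Wdr61. Of these, the 14 hpa calls were each lost without any of 5 of the 6 replicates (1.87 to 2.11 and -1.03 to -1.32), the L2C call of Dnajc14 without replicate 1 or 2 (-1.79 and -1.33), and that of Dnajc18 without replicate 2 or 3 (-1.24 and -1.37). Over the 25 tested type C genes, 5 were higher and 10 lower at 6 hpa than in CCs (20% and 40%), near the 25.8% and 35.6% of all genes. Of these genes 7 rose and 5 fell at L2C (28% and 20%, beside 23.7% and 11.2%), 4 rose and 3 fell at 4C (16% and 12%, beside 11.8% and 26.6%), and 4 rose and 1 fell at 8C (16% and 4%, beside 11.5% and 8.23%).

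Small heat shock proteins hold unfolded clients without using ATP. Hspb1 was 0.807, 6.26 and 12.4 TPM at 14 hpa, 11.2, 17.2 and 24 at E2C, 49.8, 64.3 and 149 at L2C, 54.9, 97.3 and 106 at 8C, 112, 470.1 and 715 in the morula and 18.3, 114 and 296 in the ICM. It rose at L2C by 2.03 ± 0.52 (adjusted p = 0.0015), with no overlap and in both replicate sets. The other rises were 1.70 ± 0.52 (adjusted p = 0.035) at E2C, lost without any replicate but the fourth (1.35 to 1.86), and 1.92 ± 0.52 (adjusted p = 0.0089) in the morula, lost without replicate 3 or 4 (1.74 and 1.57), and the fall of -1.85 ± 0.52 (adjusted p = 0.0060) in the ICM was lost without replicate 3 (-1.42). Of its windows 39.1% also occur elsewhere, mostly in the pseudogene Hsp25-ps1. Hspb8, which works with Bag3, was 0, 0.0843 and 7.20 at 8C and 1.20, 11.5 and 44.1 in the morula, up by 2.91 ± 0.58 (adjusted p = 0.00035).

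The BAG proteins and Hspbp1 release clients from HSP70. At 6 hpa 6 of the 7 were lower than in CCs and none higher (85.7% lower, beside 35.6% of all genes). Bag1 was 242, 272 and 275 TPM in CCs, 2.21, 4.87 and 16.6 at 6 hpa and 65.1, 94.9 and 121 at L2C, lower by -5.32 ± 0.49 (adjusted p = 4.6e-14) and then up by 2.08 ± 0.41 (adjusted p = 4.5e-05), with 1.00 in replicates 1 to 3, which was not called. Hspbp1 was 0.370, 0.606 and 4.46 at E2C, 3.09, 13.1 and 21.6 at L2C, 12.1, 36.8 and 148 at 4C and 118, 271 and 327 at 8C, rises of 2.43 ± 0.53 (adjusted p = 0.00020), 2.10 ± 0.55 (adjusted p = 0.0016) and 2.42 ± 0.55 (adjusted p = 0.0011). The ranges of neighbouring stages overlapped, and the calls held under both other scalings, but the first was 1.39 and not called in replicates 1 to 3. Its fall in the TE against the morula, -1.504, was lost without replicate 1, 2 or 3 (-1.14 to -1.37). Bag4 rose at 14 hpa from 3.15, 3.47 and 4.70 to 7.79, 17.7 and 21.9, by 1.78 ± 0.46 (adjusted p = 0.0048) (1.51 and not called in replicates 1 to 3), and fell at 4C by -2.23 ± 0.48 (adjusted p = 0.00015).

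Of the heat shock factors and their partners, 5 of 6 listed genes were tested. At 6 hpa 2 were higher and 1 lower than in CCs (40% and 20%, beside 25.8% and 35.6% of all genes). Hsf5 and Hsf2bp, known from germ cells, were higher at 6 hpa than in CCs by 5.93 and 5.70, and fell at L2C by 1.68 and 1.92 and at 4C by 2.03 and 3.03 on the log2 scale. Hsf2 rose at L2C by 2.01. Hsf1, the main heat-activated factor, fell at 4C by 2.21.

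In the SCNT blastocyst 2 of 76 members differed between lineages. Hspb2, a small heat shock protein of muscle, was 0, 0 and 2.83 TPM in the ICM and 5.77, 9.96 and 21.4 in the TE, and Dnajb3 was 0, 1.08 and 7.80 and 9.41, 15.7 and 17.9. The ranges did not overlap for either gene. The log2 difference of ICM against TE was -3.27 ± 0.37 (adjusted p = 2.6e-08) for Hspb2, in both replicate sets, and -2.61 ± 0.55 (adjusted p = 0.0020) for Dnajb3, with -1.67 in replicates 4 to 6, which was not called. Hspb2 shares 30.2% of its exon bases with Cryab on the opposite strand, which differed by -2.44, and without strand the reads of the pair cannot be told apart. Both genes also rose in the TE against the morula, by 2.03 ± 0.37 (adjusted p = 3.1e-05) and 2.20 ± 0.55 (adjusted p = 0.0020), while Hspb2 fell in the ICM by -1.24 ± 0.37 (adjusted p = 0.0095), a call lost without replicate 3, 4 or 6 (-0.84 to -1.11). The TE rise of Dnajb3 was 1.33 and not called in replicates 1 to 3. Dnajb3 had also risen at E2C, by 1.86 ± 0.55 (adjusted p = 0.028), with overlapping ranges and lost without replicate 1, 2, 3 or 6 (1.63 to 1.83). TE markers summed to between 2196 and 8851 TPM in these ICM libraries and between 6175 and 17325 in the TE.

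In fertilized blastocysts 73 members were tested. In the ICM 5 members were higher and 8 lower after Max MO than in controls (6.85% and 11%), where 8.65% of all genes were higher and 15.1% lower, and 7 were higher and 2 lower after Mcrs1 MO (9.59% and 2.74%, beside 4.88% and 5.21%). After rescaling these counts were 2 and 11 for Max MO and 5 and 3 for Mcrs1 MO, and after quantile normalization 6 and 5, and 4 and 2. In the TE 1 was higher and 1 lower after Max MO (all genes 1.04% and 1.45%), and 3 higher and 1 lower after Mcrs1 MO (1.77% and 3.31%). With the 4 compared libraries fitted alone, 0 members were called in the ICM for either morpholino, so each ICM call named here rests on the spread shared over all 12 libraries. In the TE 2 were called so for Max MO and 5 for Mcrs1 MO. The response to each morpholino was compared between ICM and TE by limma's interaction term, which called 0 members and 0% of all genes for both. An unadjusted p under 0.05 was reached by 9 and 6 of 73 members for Max MO and Mcrs1 MO, beside 1473 and 972 of all 11219 genes. These 4 sets of counts rest on 2 libraries a group and share their controls. Without control ICM replicate 1 the ICM counts were 8 up and 9 down for Max MO and 11 and 5 for Mcrs1 MO, and without replicate 2 they were 5 and 5, and 6 and 2. Leaving out either Mcrs1 MO ICM library left 0 calls in that comparison, and leaving out Max MO ICM replicate 1 or 2 left 1 and 5, or 3 and 2. In the TE no Max MO call was left without any 1 library, and at most 2 Mcrs1 MO calls were.

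Bag1 was 40.0 and 25.8 TPM in the 2 control ICM libraries, 98.1 and 109 after Max MO and 77.4 and 83.7 after Mcrs1 MO. In the TE it was 40.3 and 46.5 in controls, 66.2 and 79.5 after Max MO and 128 and 125 after Mcrs1 MO. All 8 Max MO and Mcrs1 MO libraries were above the 4 controls. The log2 differences were 1.65 ± 0.26 (adjusted p = 0.0018) for Max MO and 1.30 ± 0.26 (adjusted p = 0.013) for Mcrs1 MO in the ICM and 1.53 ± 0.26 (adjusted p = 0.013) for Mcrs1 MO in the TE, and Max MO in the TE was not called (0.73 ± 0.26 (adjusted p = 0.14)). The Max MO ICM call held without any 1 library (1.35 to 1.96) but not with the 4 libraries fitted alone, the Mcrs1 MO ICM call was lost without control replicate 2 or either Mcrs1 MO library (0.99 to 1.35), and that in the TE without control replicate 1 or either Mcrs1 MO library (1.43 to 1.54).

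Bag3, the BAG protein that joins HSP70 to autophagy, was 78 and 91.1 TPM in the control ICM, 27.6 and 35 after Max MO and 72.8 and 70.0 after Mcrs1 MO. In the TE the values were 170.4 and 153, 78.5 and 62.7 and 69.4 and 52.4. It was lower after Max MO in the ICM by -1.41 ± 0.25 (adjusted p = 0.0031), which held without any 1 library (-1.24 to -1.58) but not with the 4 libraries fitted alone, after Max MO in the TE by -1.19 ± 0.25 (adjusted p = 0.038) and after Mcrs1 MO in the TE by -1.40 ± 0.25 (adjusted p = 0.015). The TE calls were lost without any of the 4 libraries for Max MO (-1.03 to -1.35) and without control replicate 1 or either Mcrs1 MO library for Mcrs1 MO (-1.21 to -1.60).

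Hspe1 was 135 and 204 TPM in the control ICM, 398 and 285 after Max MO and 303 and 365 after Mcrs1 MO. In the TE it was 145 and 165, 312 and 262 and 369 and 329. All Max MO and Mcrs1 MO libraries were again above all controls. The rise was 1.02 ± 0.24 (adjusted p = 0.013) for Max MO in the ICM and 1.16 ± 0.24 (adjusted p = 0.024) for Mcrs1 MO in the TE, and Mcrs1 MO in the ICM stayed just under the fold minimum at 1.00 ± 0.24 (adjusted p = 0.028). The Max MO call was lost without control replicate 1 or Max MO replicate 1 (0.72 and 0.78) and under both other scalings, and the Mcrs1 MO call without any of its 4 libraries (1.07 to 1.25). Its partner Hspd1 was 588 and 1173 in the control ICM, 649 and 612 after Max MO and 779 and 1013 after Mcrs1 MO and was not called in either lineage. Hspa9 fell after Max MO in the ICM from 764 and 730.0 to 377 and 288, by -1.18 ± 0.19 (adjusted p = 0.0021), a call lost without Max MO replicate 2 (-0.98) and with the 4 libraries fitted alone, and it was 632 and 632 after Mcrs1 MO.

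Hsp90aa1 was 3320.3 and 1946 TPM in the control ICM and 5042 and 5684 after Mcrs1 MO, and 3362 and 3182 and 6807 and 6805 in the TE. It rose by 1.07 ± 0.23 (adjusted p = 0.017) and 1.06 ± 0.23 (adjusted p = 0.026), and neither rise was called after rescaling (0.95 and just under 1) or quantile normalization. The ICM rise was lost without control replicate 2 or either Mcrs1 MO library (0.69 to 1.16) and that in the TE without any of the 4 (1.02 to 1.10). Hsp90b1 rose after Mcrs1 MO in the ICM from 294 and 274 to 563 and 655, by 1.10 ± 0.28 (adjusted p = 0.032), a call also lost without control replicate 2 or either Mcrs1 MO library (0.99 to 1.20) and under both other scalings. Hsph1 showed how much the 2 control ICM libraries differed: it was 241 and 1129 in these and 202 and 138 after Max MO, and its fall of -1.64 ± 0.53 (adjusted p = 0.041) was -0.53 without control replicate 2 and -2.75 without control replicate 1. Without Max MO replicate 1 or 2 it was -1.92 or -1.36 and not called. Hspa4l was 1.78 and 0.0764 in the control ICM, 7.09 and 13.1 after Mcrs1 MO and 14.3 and 12.8 in the control TE, and its rise after Mcrs1 MO in the ICM, 2.62 ± 0.56 (adjusted p = 0.018), was lost without either Mcrs1 MO library (3.02 and 2.22). In these 2 libraries TE markers summed to 12461 and 8822 TPM and ICM markers to 447 and 1055. The part of TE cells in the rise was not tested.

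**Figure D5:**
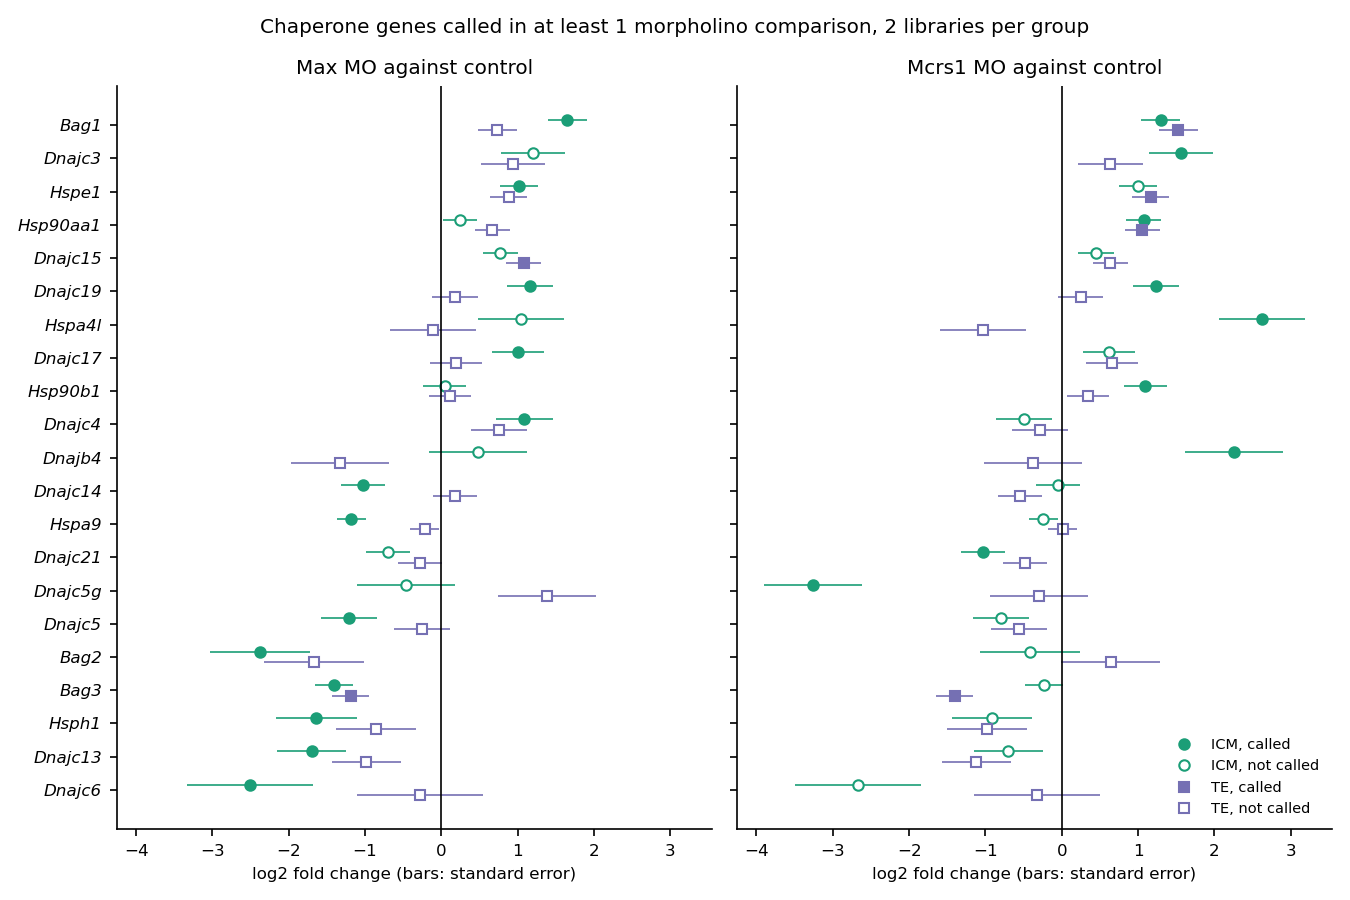
Log2 difference from control, with standard errors, of each member called in at least 1 of the 4 morpholino comparisons. Circles are the ICM, squares the TE and filled symbols are called. Bag1 lies above 0 and Bag3 below 0 in all 4, but Bag1 was not called for Max MO in the TE, nor Bag3 for Mcrs1 MO in the ICM.

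Of the remaining calls, Dnajc19 rose in the ICM after both morpholinos (1.16 and 1.23), and Dnajb4 (2.25) and Dnajc3 (1.57) rose and Dnajc5g and Dnajc21 (-1.03) fell after Mcrs1 MO. Dnajc5g was 9.39 and 7.82 TPM in the control ICM and listed at 0 in both Mcrs1 MO libraries, so no fold is given, and it was not called without either of these. After Max MO in the ICM, Dnajc4 (1.09) and Dnajc17 (1.00) rose, and Dnajc6 (-2.51), Bag2 (-2.37), Dnajc13 (-1.70), Dnajc5 (-1.21) and Dnajc14 (-1.03) fell. Without single libraries each of these 7 calls was lost at least once. It was lost in 3 of 4 settings for Dnajc4 (0.81 to 1.37 over all 4), Dnajc17 (0.49 to 1.51) and Bag2 (-1.55 to -3.20). It was lost in 2 of 3 for Dnajc6 (-2.40 to -4.02) and in 2 of 4 for Dnajc13 (-1.47 to -1.93), Dnajc5 (-0.88 to -1.54) and Dnajc14 (-0.78 to -1.27). Dnajc4 and Dnajc17 were also not called after rescaling, nor Bag2, Dnajc13, Dnajc5 and Dnajc14 after quantile normalization. The Max MO call of Dnajc19 was lost in 2 of 4 settings (0.87 to 1.45). After Mcrs1 MO those of Dnajc19 (0.97 to 1.499), Dnajb4 (1.85 to 2.65), Dnajc3 (1.06 to 2.07) and Dnajc21 (-0.87 to -1.19) were lost in 3 of 4. After Max MO in the TE, Dnajc15 rose from 39.7 and 47.1 to 95.4 and 89.7, by 1.08 ± 0.23 (adjusted p = 0.040), and was lost without any of the 4 libraries (0.96 to 1.20). Hspa8 was not called: it was 9662 and 13891 in the control ICM, 8896 and 7219 after Max MO and 10428 and 10253 after Mcrs1 MO, and between 10606 and 13610.1 in the TE libraries. Hspa5, Hsp90ab1, Tcp1 and Dnajb1 were not called in any morpholino comparison, and Hspa1a and Hspa1b were below the filter, with Hspa1a at 7.25 and 0 TPM in the control ICM. After Max MO in the ICM, Hsf1 fell by 1.25 and Hsf2 by 1.17 on the log2 scale. Of the 6 prefoldin genes 4 rose and 1 fell (66.7% and 16.7%, beside 8.65% and 15.1% of all genes). For these genes outside the members, fits without single libraries or under other scalings are not given.

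Fitted on the libraries of the compared stages alone, some of the calls described above were lost. These were Cct6a at E2C, Dnajb1 at L2C and 8C, Cct6b at 4C, Dnajc24 at 4C and 8C and Hspa2 at 8C. In the blastocyst they were Dnajb2, Hspb1 and Hspb2 in the ICM against the morula, Hspa1a in the TE against the morula and Dnajb3 between the lineages.

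The 16 tested members that were not called between any SCNT groups were Bag2, Cct8, Dnaja2, Dnajc4, Dnajc5, Dnajc9, Dnajc13, Dnajc17, Dnajc21, Dnajc30, Hspa12a, Hspa13, Hspa14, Hspb6, Hspb11 and Hspe1. A further 13 were below 1 TPM on average in the SCNT experiment. Their highest values in any of the 68 libraries were 24.2 TPM for Dnajc16, 18.1 for Dnajc6, 13.9 for Dnajb7, 13.5 for Dnajc22 and 9.68 for Cct8l1, and 0.111 to 4.10 for Dnajb5, Dnajb8, Hspa12b, Hspa1b, Hspa1l, Hspb3, Hspb7 and Hspb9.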

How the data were processed

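Libraries were grouped by the sample labels, and 4C replicate 5 was named by its label. For each library the authors made 1 gene table with StringTie from Smart-seq2 reads that Cutadapt 1.16 had trimmed and HISAT2 had aligned to mm10, and they compared genes with DESeq2. The deposited tables give coverage signal, FPKM and TPM. The authors' TPM sums to 1000000 over the loci assembled in each library, on which scale the 24421 reference symbols hold 30.4% to 94.4%, so the deposited TPM column was treated as a signal on that scale. The deposited coverage and FPKM were used only for the depth measure. No read counts were used here, so no count test, counting interval or floor is given, and the kit does not mark strand.

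TPM was summed over the rows of a symbol. In R 4.3.3 with limma 3.58.1, log2(TPM + 1) was fitted (lmFit, then eBayes with its trend option) for genes averaging at least 1 TPM: 11867 genes in 53 SCNT libraries and 9 groups, 12084 in 56 libraries with CCs, and 11219 in 12 libraries and 6 groups. P-values were adjusted by Benjamini-Hochberg over all genes tested in a fit. The fits were tested on simulated data. Python 3.11.15, numpy 2.4.6, pandas 2.3.3 and matplotlib 3.10.9 were used for the rest. Shared 150-base windows and exon overlaps were taken from GENCODE vM21 transcripts.

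The members and lists were chosen with earlier results of these data known. The genes named are Hspa1a, Hspa1b, Hspa8, Hspa5, Hsph1, Hsp90aa1, Hsp90ab1, Hspd1, Hspe1, Dnajb1 and Tcp1, the 5 largest rises and 5 largest falls called in a comparison and the members called in at least 3 SCNT comparisons, and others, such as Hspa9 and Cct8, were added after their values were seen. Libraries of different groups share replicate numbers. After subtracting group means, libraries with the same number correlated above 0.1 in every pair for 14 against 6 hpa (0.142 to 0.390 over 6 pairs) and for SCNT ICM against TE (0.131 to 0.300), and the fit with a replicate block is an alternative. The other alternatives were a pseudocount of 0.1, no filter, a mean of at least 5 TPM, TPM rescaled over reference genes, quantile normalization, no fold minimum, the largest row per symbol, Hspa1a and Hspa1b summed, the compared groups alone, replicates 1 to 3 or 4 to 6 alone, and single replicates left out.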

Additional observations from a re-analysis of the deposited data

Results flagged for a closer look

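Over 11 members and 9 SCNT groups, 99 sets of values were examined for a single library far from the rest of its group, and 14 had one, where chance gives about 1 in 20. Morula replicate 2 held 3 of them, with 11159 TPM of Hspa8 (others 8309 to 9241), 5363 of Hsp90ab1 (1860 to 2753) and 151 of Hspe1 (234 to 299). Tcp1 was 733 TPM in morula replicate 3 (others 554 to 615) and 606 in 8C replicate 3 (435 to 481). Hsph1 was low in replicate 1 of 8C, at 14.8 TPM (others 25.9 to 35.8), and of the TE, at 29.6 (69.9 to 102). Replicate 1 was also low for Hsp90aa1 at 14 hpa, at 697 TPM (others 1170 to 1511), for Hsp90ab1 at 6 hpa, at 233 (317 to 357), and for Hspe1 at 4C, at 127 (196 to 227). Hspd1 was 202 TPM in ICM replicate 3 (others 381 to 542). The others were Hspa1a at 0.337 TPM in 6 hpa replicate 4 and at 0.981 in TE replicate 6, and Hspa1b at 0.224 in TE replicate 6, all under 1 TPM.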

How the results depend on the processing

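Among recomputed values of the 211 calls of single members, 3004 kept their direction and side of the threshold, 444 kept the direction without a call, and 2 turned, both in replicates 4 to 6: Cct6a for E2C against 14 hpa (-0.086) and Dnajc24 for 8C against 4C (-0.099). The number of members called moved by over 1.5 times as follows, the cause being not tested. For 14 against 6 hpa (7 called) it was 11 after quantile normalization, 11 with the compared groups alone and 20 in replicates 4 to 6. For E2C against 14 hpa (6) it was 10 in replicates 1 to 3 and 12 in replicates 4 to 6, for 4C against L2C (28) 18 in replicates 1 to 3, for 8C against 4C (24) 15 after rescaling and for the morula (11) 17 with the compared groups alone. For SCNT ICM against TE (2) it was 1 at a mean of at least 5 TPM, 1 with the compared groups alone, 6 in replicates 1 to 3 and 1 in replicates 4 to 6. For Max MO in the ICM (13) it was 8 without a filter and 0 with the compared groups alone, and for Mcrs1 MO in the ICM (9) 4 and 0. With the replicate block, Max MO in the TE (2) had 1, and no other count moved that far. Pairs of the other SCNT comparisons were not all above 0.1 (-0.23 to 0.34), and those of the morpholino experiment were -0.04 to 0.06. Leaving out 1 replicate at a time gave 46 to 48 calls for 6 hpa against CCs, 5 to 8 at 14 hpa, 2 to 6 at E2C, 28 to 34 at L2C, 21 to 29 at 4C, 17 to 23 at 8C, 9 to 12 in the morula, 8 to 13 in the ICM and 8 to 11 in the TE against the morula, 2 to 4 for ICM against TE, 5 to 17 and 0 to 0 for Max MO in the ICM and TE, 0 to 16 and 0 to 2 for Mcrs1 MO, and 0 to 2 for the interaction of either morpholino with lineage. Members near 0 TPM, Hspa1a and Hspa1b among them, lie where the depth of these libraries and a pseudocount of 1 limit what can be seen.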
